A study of Mus musculus with 4 samples.

Results

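The genes described here encode the cytosolic ribosomal proteins of the mouse, except Rpl3, in RNA sequencing of embryonic forebrain. They were taken by name and by the protein coding class in the deposited tables: 47 genes of the large subunit, 32 of the small subunit and the 3 genes of the acidic stalk, 82 of the 22084 genes listed. The series asks how the nuclear protein Tcf20 acts in the formation of neurons. It holds 4 libraries of B6D2F2 embryos, a mixed C57BL/6 and DBA/2 background, at stage E13.5. KO23M and KO26F are labelled TCF20-/-. WT25F is labelled TCF20+/+, and WT22M is called wild type in its title and TCF20+/- in its genotype field. Whichever label holds for WT22M, it and WT25F have 1 or more intact alleles, and the pair is named carriers below. The last letter of the library names, M or F, is taken from the titles and is not defined in the labels. The tissue is telencephalic in the titles and cerebral cortex in the extraction protocol. The labels name no litter and do not say which part of Tcf20 was removed, so a p-value here reflects only the variation among these 4 samples, which may be technical.

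The ribosome is built from ribosomal RNA and about one copy of each ribosomal protein, so cells make these proteins in near equal numbers. Many of their messenger RNAs begin with a run of C and T at the first base, the terminal oligopyrimidine tract, through which mTOR and Larp1 control their translation. The genome holds many processed copies of these genes, made by reverse transcription of the messenger RNA, whose sequence stays close to that of the parent gene. In the growing forebrain, dividing progenitors need a steady supply of ribosomes.

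Depth was even, from 17791641 counts in WT22M to 18509743 in KO23M. Tcf20 itself had 104 and 98.6 CPM (counts scaled to each library's total) in KO23M and KO26F, against 111 and 118 CPM in WT22M and WT25F. The log2 fold change of KO against carriers was -0.18 (SE 0.10, edgeR adjusted p = 1.0), and since the removed part is not stated, this count does not check the labels. Summed over 12 telencephalon markers, the level was 3437 and 3658 CPM in KO23M and KO26F, against 3510 and 3242 CPM in WT22M and WT25F. Choroid plexus markers, a group of 9 genes, summed to 786 and 1009 CPM in KO23M and KO26F, against 204 and 952 CPM in WT22M and WT25F. Meninges markers were lower in KO for 7 of 7 genes, diencephalon markers for 6 of 6, endothelium markers for 6 of 6 and microglia markers for 5 of 6. Higher in KO were 8 of 8 choroid plexus markers tested, 9 of 12 telencephalon markers and 4 of 7 erythroid markers. In each of these lists 0 were called. Diencephalon markers summed to 39.9 and 43.3 CPM in KO23M and KO26F, against 38.8 and 97.3 CPM in WT22M and WT25F, so only WT25F stood apart. For choroid plexus markers WT22M stood apart: against WT25F alone, 1 of the 8 tested was higher in KO, at a median log2 fold change of -0.19. The part of these tissues in the values below was not tested.

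Promoter sequence was matched for 63 of the 82 genes in RefSeq on GRCm38.p6. Shown are 40 bases before and 20 bases from the annotated start of 4 genes, with capitals marking runs of at least 5 C or T that end no earlier than 2 bases before the start and begin within the first 10 bases from it. Rps6 is the phosphorylated marker protein of mTOR signalling, Rps18 had the second widest range of counts, and Rps9 and Rpl28 were higher in the M libraries.
Rps6, chr4:86857348-86857407, minus strand: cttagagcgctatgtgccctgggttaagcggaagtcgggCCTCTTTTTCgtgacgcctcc
Rps18, chr17:33955646-33955705, minus strand: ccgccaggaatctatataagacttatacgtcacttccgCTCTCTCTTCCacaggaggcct
Rps9, chr7:3704001-3704060, plus strand: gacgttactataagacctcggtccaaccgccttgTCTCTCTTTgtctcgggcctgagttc
Rpl28, chr7:4792925-4792984, plus strand: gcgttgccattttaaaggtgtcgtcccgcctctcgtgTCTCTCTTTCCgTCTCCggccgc
At these 4 starts, chosen as examples, the annotated first base lies inside a run of C or T and not at its first letter. How often a run marked in this way occurs over the matched genes or over all genes was not counted. Also counted was a run of at least 5 C or T that begins within 2 bases of the annotated first base, with C or TC. It stood in 10 of the 63 matched genes (15.9%), against 9.35% of all 27025 genes with promoter sequence. A gene counted if any of its annotated starts had the run.

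Across the matched promoters, 12 strings were counted, chosen after the windows had been inspected. A gene counted if any of its annotated starts had the string, and the shares are of genes. Between 10 bases before and 20 bases from the start, on the sense strand, TTTCC stood in 16 of 63 ribosomal protein genes (25.4%). Of all 27025 genes with promoter sequence, 5.01% had it. CTCTT stood in 20.6%, against 4.60%. CTTTT (7.94% against 3.62%), CTTTCC (15.9% against 1.52%), CCTTTC (12.7% against 1.40%) and CTCTTTC (7.94% against 0.403%) overlap with these. Over the whole window of 250 bases before and 50 from the start, on either strand, CCGGAAG, a core of sites bound by ETS factors, stood in 41.3%, against 9.93%. GCGGAAG stood in 28.6%, against 6.53%, and TCTCGCGA in 17.5%, against 1.13%. CACGTG, the E-box that Myc proteins bind, stood in 9.52%, against 8.09%. AAGATGG in the first 50 bases stood in 6.35%, against 1.54%, and TATAAA in the 50 bases before the start in 1.59%, against 3.15%.

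Because reads of a gene and of its processed copies are hard to separate, the copies were collected through the protein annotation in the files. A total of 407 copies, of which 387 are pseudogenes and 20 single-exon protein coding genes, belonged to 73 of the 82 genes, with up to 27 for one gene (Rpl21). Shown are copies of 3 genes whose counts moved opposite to the parent gene in at least 1 library. The stretches are the 72 coding bases with the most differences in GENCODE vM21 transcripts, lower case where both sequences match and capitals where they differ.
Rpl34: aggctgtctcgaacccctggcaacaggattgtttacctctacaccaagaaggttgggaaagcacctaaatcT
Rpl34-ps1: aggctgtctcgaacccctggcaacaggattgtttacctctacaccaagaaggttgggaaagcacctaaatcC
Rplp0: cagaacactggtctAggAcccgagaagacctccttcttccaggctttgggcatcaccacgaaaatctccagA
Gm8730: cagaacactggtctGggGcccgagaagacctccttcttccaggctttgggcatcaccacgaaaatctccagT
Rps18: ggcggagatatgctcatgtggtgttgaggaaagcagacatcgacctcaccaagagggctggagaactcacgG
Rps18-ps3: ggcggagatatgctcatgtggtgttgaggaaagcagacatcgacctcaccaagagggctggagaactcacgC
Over the whole coding sequence, Rpl34 and Rpl34-ps1 differed at 2 of 351 bases, Rplp0 and Gm8730 at 12 of 951, and Rps18 and Rps18-ps3 at 3 of 456, with no gap. Rps7 and Gm6472 differed at 3 of 582 and Rpl29 and Gm8210 at 3 of 480.

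Most ribosomal protein genes were abundant. Of the 82, 78 averaged at least 1 CPM, and levels set per kilobase of transcript (RPKM, from the shortest complete principal transcript of GENCODE vM21) ran above 1000 for 7 genes. Rpl41, whose product is a peptide of the large subunit, led at 1506 ± 136 RPKM (SD over 4 libraries), then Rpl13 at 1393 ± 84.8 and the stalk gene Rplp0 at 1375 ± 235. Rps15 followed at 1187 ± 111 and Rps9 at 1122 ± 106 RPKM. The SDs of neighbours in this order overlapped. Rps20 stood at 78.9 ± 9.18 RPKM with a transcript model of 3706 bases, so its level per length rests on that model.

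The lowest levels belonged to paralogs and to genes that share their place with another gene. Rpl39l, a paralog of Rpl39 used in the testis, had 0 counts in KO23M and in KO26F, against 2 counts in WT22M and 1 in WT25F. Rpl3l, the striated muscle paralog of Rpl3, had 1 and 0 counts in KO23M and KO26F, against 5 and 1 in WT22M and WT25F. With 3 counts as the limit that a count of 0 allows, 0.162 to 0.169 CPM per library, only the 5 counts of Rpl3l in WT22M were above it. Rpl24, a core protein of the large subunit, had only 8 and 9 counts in KO23M and KO26F, against 5 and 12 in WT22M and WT25F. Gm28037 overlaps it on the same strand in GENCODE vM21, and Rpl36al, with 9 and 3 counts against 10 and 10, is likewise overlapped by Gm49383. The sources used here do not give how reads shared by such genes were counted. Rpl13, Rpl19 and Rps10 are overlapped in the same way and were abundant. Rpl13a, overlapped by Gm45713, stood at 23.3 and 17.9 CPM in KO23M and KO26F, against 18.5 and 19.4 CPM in WT22M and WT25F.

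The ribosomal protein genes took 3.85% of all counts in KO23M (95% Wilson interval 3.84 to 3.86) and 3.26% in KO26F (3.25 to 3.27), against 3.67% in WT22M (3.66 to 3.68) and 3.43% in WT25F (3.43 to 3.44). The KO libraries were thus the highest and the lowest of the 4. The share averaged 3.56 ± 0.416% in KO and 3.55 ± 0.169% in carriers (SD, n = 2 each), with exact permutation p = 1, where a design of 2 against 2 cannot go below 0.333. Between the M libraries, the KO share was higher by 0.178 percentage points. Between the F libraries, it fell by 0.171 points in KO26F relative to WT25F. Gene by gene, KO was above its carrier for 63 of 78 genes in the M libraries, against 50.8% of all genes at this level, and for 15 of 78 in the F libraries, against 52.4%.

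**Figure D1:**
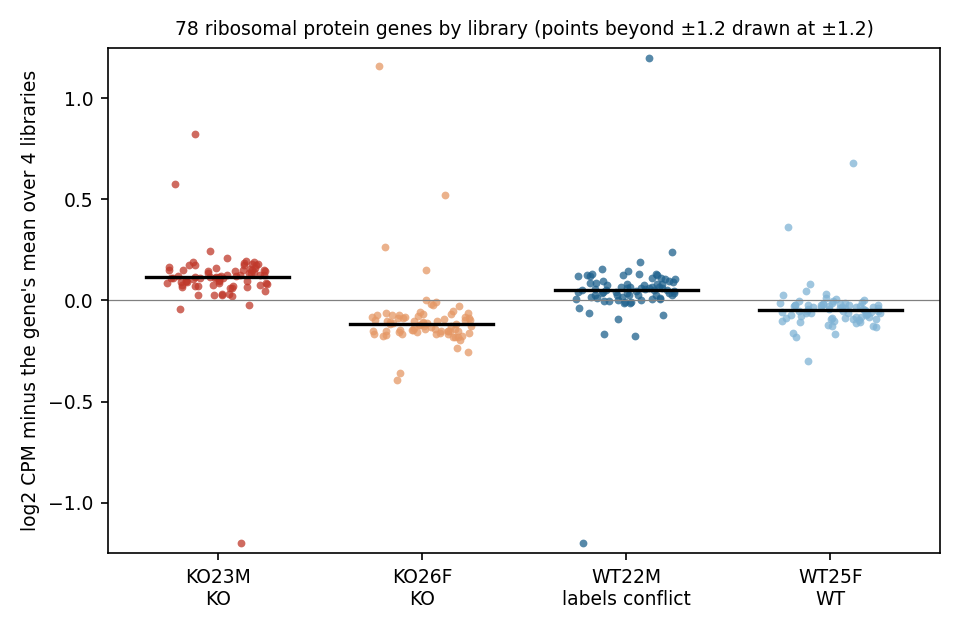
Each point is 1 of the 78 ribosomal protein genes averaging at least 1 CPM; the vertical axis is its log2 CPM minus its own mean over the 4 libraries and the black lines are medians. The medians are 0.12 in KO23M, -0.12 in KO26F, 0.05 in WT22M and -0.05 in WT25F, and 2 genes, Rpl34 and Rps18, have points drawn at the limit of the axis.

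No ribosomal protein gene other than Rpl3 passed the test of KO against carriers. Of 79 genes tested, 39 were higher and 40 lower, 0 were called at an adjusted p under 0.05 by edgeR, where 0.0615% of all 16252 genes tested were called, and 0 had an unadjusted p under 0.05. DESeq2 also called 0. The median log2 fold change was -7.08e-05, against 0.0020 over all genes. The large subunit split into 22 higher and 22 lower, the small subunit into 16 and 16, and the stalk into 1 higher and 2 lower. Rpl3, left out of the set, is the member of the family that was called. It stood at 475 and 435 CPM in KO23M and KO26F, against 672 and 842 CPM in WT22M and WT25F (log2 fold change -0.74, SE 0.11, edgeR adjusted p = 0.00274). The 6 copies of Rpl3 were left out as well, so its value was not summed with them.

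Where mean log2 CPM was 1 or more, the 8 highest and 8 lowest fold changes were led by a few genes whose libraries disagreed within a group. Rpl34 stood at 11.9 and 119 CPM in KO23M and KO26F, against 251 and 133 CPM in WT22M and WT25F (log2 fold change -1.58, SE 1.49). Rps18, a protein of the small subunit head, stood at 240 and 359 CPM in KO23M and KO26F, against 37.5 and 207 CPM in WT22M and WT25F (1.30, SE 1.14). The groups did not overlap for Rpl34 and Rps18, but lay close at the border (119 and 133 CPM, 240 and 207 CPM), while KO23M was far below the rest for Rpl34 and WT22M for Rps18. Rpl29 stood at 451 and 199 CPM in KO23M and KO26F, against 227 and 207 CPM in WT22M and WT25F (0.59, SE 0.59). Rplp0, the scaffold of the stalk, stood at 2102 and 1406 CPM in KO23M and KO26F, against 2055 and 1904 CPM in WT22M and WT25F (-0.17, SE 0.25). In Rpl29 KO23M was high, and in Rplp0 KO26F was low, while the other 3 libraries lay near each other.

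The remaining fold changes of these 16 genes were small. Rpl23a (0.23, SE 0.12), Rps7 (0.19, SE 0.11), Rpl35 (0.17, SE 0.11), Rps2 (0.14, SE 0.10), Rpl13a (0.12, SE 0.16) and Rps27l, a paralog of Rps27 that p53 induces (0.07, SE 0.12), were on the higher side. Rpl22l1, the paralog of Rpl22 (-0.13, SE 0.19), Rps28 (-0.11, SE 0.12), Rpl10a (-0.10, SE 0.20), Rps12 (-0.09, SE 0.11), Rpl38 (-0.08, SE 0.11) and Rpl23 (-0.08, SE 0.11) were on the lower side. Both KO libraries lay on the same side of both carriers for 7 of 78 genes, where 26.5% of all genes at this level did: above them for Rpl23a, Rpl35, Rps18 and Rps2, and below them for Rpl22l1, Rpl34 and Rps29. Rps2, which binds the messenger channel of the small subunit, had 1055 and 928 CPM in KO23M and KO26F, against 898 and 905 CPM in WT22M and WT25F. Summed with its copies, Rps2 had 1119 and 964 CPM in KO23M and KO26F, against 981 and 961 CPM in WT22M and WT25F, so the groups overlapped. After summing with copies, the groups also overlapped for Rpl23a, Rpl34, Rpl22l1 and Rps29, and stayed apart for Rpl35 and Rps18.

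**Figure D2:**
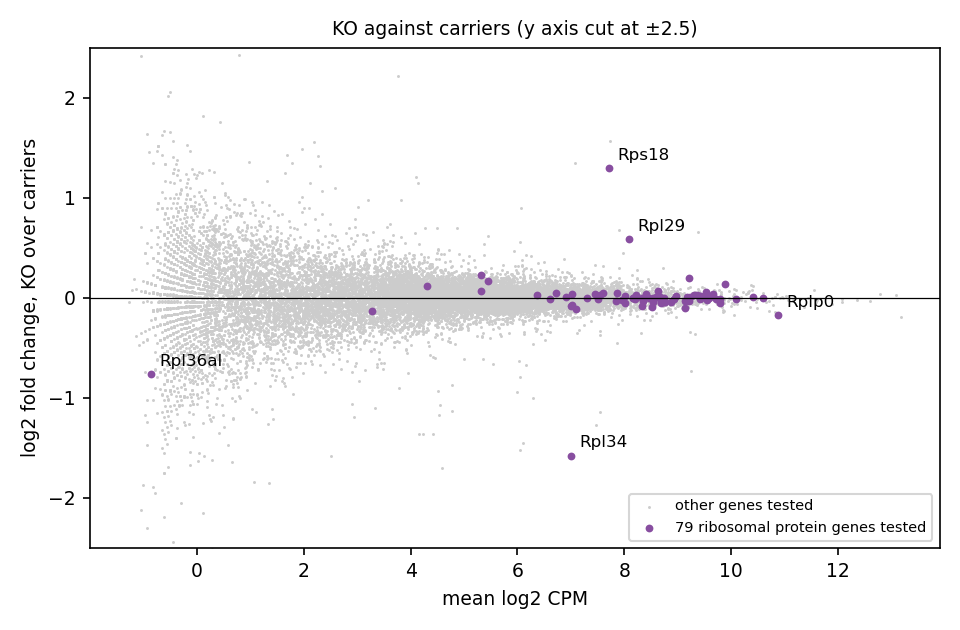
The horizontal axis is the mean log2 CPM and the vertical axis the log2 fold change of KO over carriers; purple points are the 79 ribosomal protein genes tested and grey points all other genes tested. Most purple points lie near the zero line; Rps18 (1.30), Rpl29 (0.59), Rpl36al (-0.76, at 3 to 10 counts) and Rpl34 (-1.58) stand off it.

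The list depended on single libraries. In the fits with 1 library left out, 49.2% to 51.2% of all genes tested were higher, at medians from -0.0040 to 0.0053. With 1 library left out, an arm holds 1 library, which is assumed to vary like the pair of the other arm, and the p-values below rest on that. Without KO23M, 6 of 80 genes tested were higher and the median was -0.15, with Rplp0 called (adjusted p = 0.00517; 0.385% of all genes called). Without KO26F, 75 of 80 were higher and the median was 0.13, with Rpl29 called (adjusted p = 6.36e-16; 0.285%). Without WT25F, Rps18 was called (adjusted p = 2.15e-56; 0.594%) and 13 of 79 were higher, at a median of -0.06. Without WT22M, 70 of 80 were higher, at a median of 0.07, and 0 were called (0.349%; 1 at an unadjusted p under 0.05). With the title letter as a block, 0 were called and 4 had an unadjusted p under 0.05 (Rps7, Rplp0, Rps2 and Rpl23a), where 0.757% of all genes were called. With the block and all copies summed, 0 were called and 1 had an unadjusted p under 0.05, where 0.784% of all genes were called.

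Against WT25F alone, in a fit with 3 groups whose spread comes from the KO libraries, 70 of the 79 genes were higher in KO and 0 were called (0.345% of all genes; 1 at an unadjusted p under 0.05; DESeq2 also 0). The median was 0.06, against 0.0041 over all genes, of which 50.9% were higher. With KO26F alone as the KO library the median was -0.08, and with KO23M alone it was 0.20, both without a test.

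Both carriers also differed from each other, in a contrast where 49.5% of all genes were higher in WT22M, at a median of -0.0029. In WT22M against WT25F, a comparison of 2 libraries that shares WT25F with the one before, 75 of 79 genes were higher in WT22M, at a median of 0.13, and 1 was called (0.714% of all genes). That gene was Rps18, at 37.5 CPM in WT22M and 207 CPM in WT25F (log2 fold change -2.43, SE 0.19, edgeR adjusted p = 1.38e-34). This call sets 1 library against 1, with the spread taken from the KO pair, and is lost without a filter on low counts (adjusted p = 0.979) and with the spread of the fit of 2 arms (adjusted p = 1.0); it holds under RLE factors, library totals, DESeq2, limma voom and the other filter, where adjusted p runs from 1.21e-38 to 0.00315. In the authors' deposited tables, Rps18 was marked in WT22M against WT25F (log2 fold change -2.46), Rpl29 (1.12) and Rpl34 (-3.48) were marked in KO23M against WT25F, and none of the 82 was marked in KO26F against WT25F; those tables mark 3.62%, 2.9% and 1.96% of all their genes in these comparisons.

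Within each arm, most ribosomal protein genes were higher in the library with the letter M. Of the 78 genes averaging at least 1 CPM, 74 were higher in KO23M than in KO26F and 70 higher in WT22M than in WT25F. In 67 (85.9%) the M library was the higher one in both arms, against 25.4% of all genes at this level, and Rps18 alone was lower in M in both arms (38.7% of all genes). KO26F was the lowest library for 61 of the 78 (22.8% of all genes) and KO23M the highest for 59 (20.8%). The median log2 ratio was 0.23 for KO23M over KO26F and 0.10 for WT22M over WT25F. Summed shares of counts averaged 3.76 ± 0.126% in the M libraries and 3.35 ± 0.121% in the F libraries (SD, n = 2 each; exact permutation p = 0.333, the smallest this design allows).

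**Figure D3:**
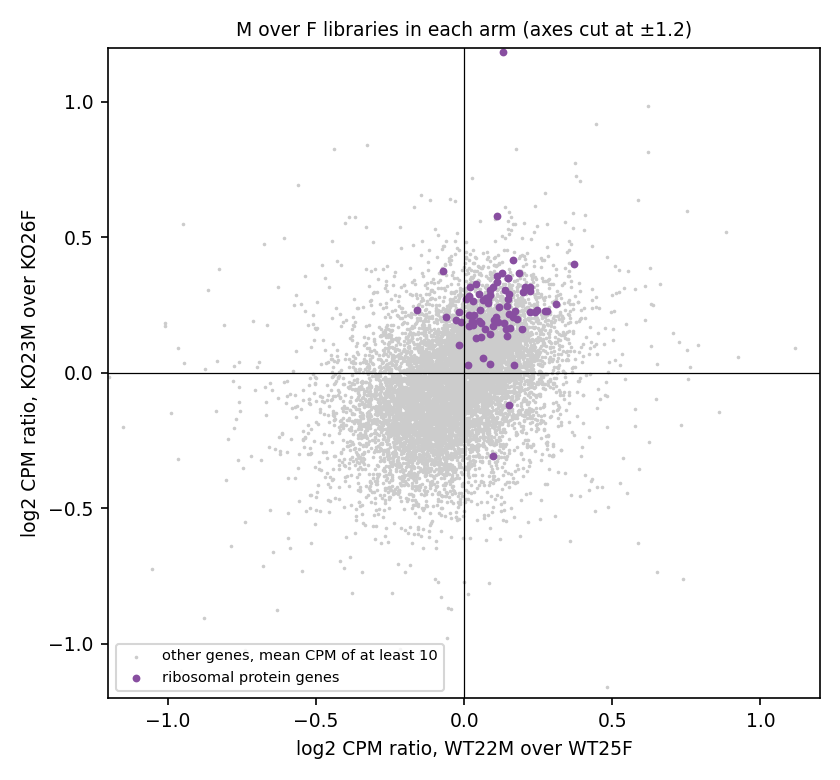
Each point is a gene; the horizontal axis is the log2 CPM ratio of WT22M over WT25F and the vertical axis that of KO23M over KO26F, with ribosomal protein genes in purple and other genes averaging at least 10 CPM in grey. The purple points gather at the upper right, near 0.10 and 0.23; 2 of them, Rpl34 and Rps18, lie outside the axes.

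In a fit with letter and arm as terms, which leaves 1 residual degree of freedom and was chosen after the values had been seen, 44 of the 79 ribosomal protein genes rose in M against F and 0 fell, where 4.1% of all 16252 genes tested were called and 2.55% were called as higher. Their log2 fold changes ran from 0.18 to 0.42; 76 of 79 were higher, at a median of 0.21, against -0.0079 over all genes. Rpl10a led, at 616 and 655 CPM in KO23M and WT22M, against 466 and 507 CPM in KO26F and WT25F (log2 fold change 0.42, SE 0.06, edgeR adjusted p = 2.08e-10). The stalk genes rose as well: Rplp1 stood at 486 and 463 CPM in KO23M and WT22M, against 364 and 413 CPM in KO26F and WT25F (0.33, SE 0.06, adjusted p = 7.92e-06), and Rplp2 at 317 and 310 CPM, against 283 and 278 CPM (0.20, SE 0.06, adjusted p = 0.0312). In all 3 of these genes, the M library was the higher one in both arms. Of all genes averaging at least 1 CPM, 25.4% had this pattern.

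Other genes were described for their known roles, and differences between them were not tested. Rps19, often mutated in Diamond-Blackfan anaemia, stood at 293 and 268 CPM in KO23M and WT22M, against 227 and 245 CPM in KO26F and WT25F (log2 fold change 0.29, SE 0.06, edgeR adjusted p = 4.84e-04). Rpl11, which binds Mdm2 when ribosome assembly stalls, also rose (0.22, SE 0.06, adjusted p = 0.0112). Its partner Rpl5 had 736 and 665 CPM in the M libraries KO23M and WT22M, against 638 and 695 CPM in KO26F and WT25F (0.11, SE 0.06, adjusted p = 0.302). Rps20 (0.32, adjusted p = 4.54e-05) and Rps27a, a fusion with ubiquitin (0.21, adjusted p = 0.0220), passed, and so did Rpl38, required for translation of Hox messengers in mouse (0.23, adjusted p = 0.0356). Rps6 (0.15, adjusted p = 0.10), Rpsa (0.15, adjusted p = 0.0879), Rpl10 (0.16, adjusted p = 0.0868) and Rpl22 (0.13, adjusted p = 0.219) did not.

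The call depended on the fit: without the arm as a term 4 genes were called (Rpl10a, Rpl18, Rpl28 and Rpl36; 0.252% of all genes), and with library totals in place of TMM 17 were (1.58%). The split over all genes moved as well, with 415 of 666 calls higher under TMM and 97 of 257 under library totals; the 17 ribosomal protein genes were all higher. Transcript length moved with the same contrast. Among protein coding genes outside the family, the median log2 fold change of M against F was 0.14 for 198 genes with transcripts under 600 bases, 0.12 from 600 to under 1000, 0.07 from 1000 to under 2000, -0.0081 from 2000 to under 4000 and -0.09 at 4000 bases or more. Among those averaging at least 50 CPM, the 53 genes under 600 bases had a median of 0.19 and 30.2% of them were called as higher. At the same level, the 194 genes from 600 to under 1000 bases had a median of 0.14 and 19.1% were called as higher. Of the ribosomal protein genes tested, 55.7% were called as higher. The ribosomal protein transcripts are short, with a median of 681 bases and 64 of 82 under 1000. Markers of some other cell types differed in this contrast as well. Choroid plexus markers had 0 of 8 tested higher and 2 called lower in M, erythroid markers 0 of 7 higher and 2 called lower, and diencephalon markers 0 of 6 higher and 0 called. Microglia markers had 6 of 6 higher and 0 called, at a median of 0.19; they summed to 74.9 and 93.5 CPM in KO23M and WT22M, against 68.7 and 80.0 CPM in KO26F and WT25F. Erythroid markers summed to 656 and 563 CPM in the same M libraries, against 713 and 1002 CPM in the F libraries, and diencephalon markers to 39.9 and 38.8 CPM, against 43.3 and 97.3 CPM. Choroid plexus markers summed to 786 and 204 CPM in KO23M and WT22M, against 1009 and 952 CPM in KO26F and WT25F. The diencephalon difference thus came mostly from WT25F, and the choroid plexus difference mostly from WT22M. Of meninges markers 5 of 7 were higher (median 0.0041) and of endothelium markers 1 of 6 (median -0.06), with 0 called. Telencephalon markers had 7 of 12 higher and 1 called higher, at a median of 0.03. The part of transcript length and of these cell types in the result was not tested, and fewer cells of a type cannot be told apart from less RNA per cell.

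**Figure D4:**
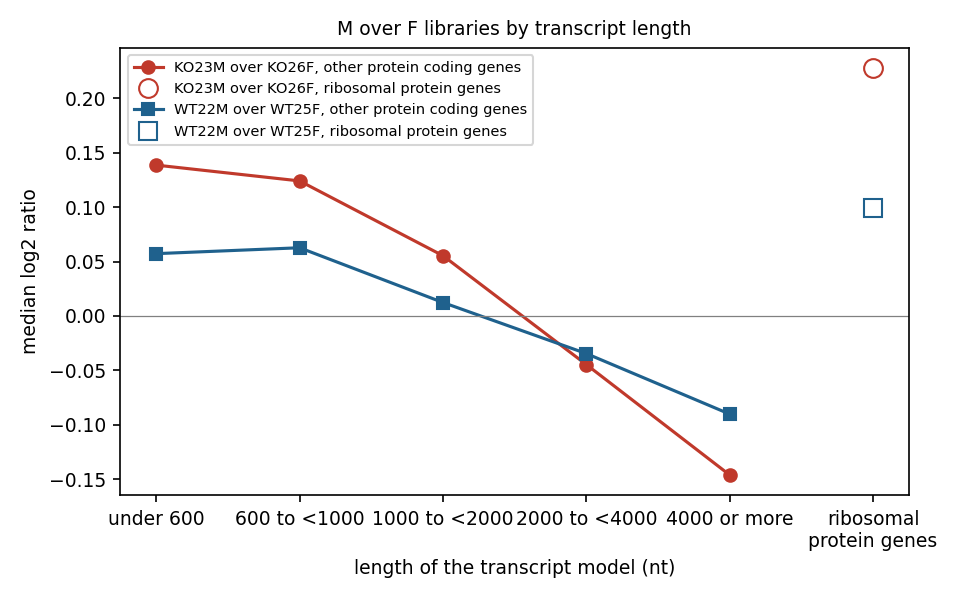
The vertical axis is the median log2 ratio of M over F libraries, with circles for KO23M over KO26F and squares for WT22M over WT25F; the horizontal axis gives bins of transcript length for other protein coding genes (filled) and the ribosomal protein genes (open). The 2 shortest bins lie at 0.14 and 0.12 for the circles and both at 0.06 for the squares, and the values are lower from 1000 bases on. The open symbols lie at 0.23 and 0.10. Genes that average at least 50 CPM are not drawn apart: their values are 0.20 and 0.10 under 600 bases, and 0.14 and 0.07 from 600 to under 1000.

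The genes that differed most between libraries were ones whose copies moved the other way in part. Only 3 of 78 genes (3.85%) had a highest over lowest CPM above 2, against 6.08% of all genes at this level: Rpl34 at 21.1, Rps18 at 9.59 and Rpl29 at 2.27. Rpl34 (chr3:130726831-130730398) and Rpl34-ps1 (chr6:71124610-71124963) moved in opposite directions: Rpl34-ps1 had 273 and 113 CPM in KO23M and KO26F, against 23.2 and 130 CPM in WT22M and WT25F. Summed with its 6 copies, Rpl34 stood at 288 and 240 CPM in KO23M and KO26F, against 290 and 271 CPM in WT22M and WT25F, a range of 1.21, and the log2 fold change of KO against carriers was -0.09.

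Rplp0 showed the same in 1 library. Gm8730 (chr8:102864845-102865798), its copy, had 10.5 and 307 CPM in KO23M and KO26F, against 10.1 and 9.53 CPM in WT22M and WT25F. The sum with all 3 copies was 2113 and 1756 CPM in KO23M and KO26F, against 2066 and 1914 CPM in WT22M and WT25F, and the log2 fold change was -0.04. Rps7, lowest in WT22M at 520 CPM, had its copy Gm6472 (chrX:152909505-152910155) highest there, at 318 CPM, against 208, 184 and 218 CPM in KO23M, KO26F and WT25F.

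Rps18 and Rpl29 were still uneven after summing. Rps18-ps3 had 22.2 and 1.27 CPM in KO23M and KO26F, against 41.1 and 19.8 CPM in WT22M and WT25F, and the single-exon gene AL607105.1 had 24.3 and 3.81 CPM, against 40.2 and 23.4 CPM. The sum of Rps18 with its 3 copies was 287 and 365 CPM in KO23M and KO26F, against 119 and 250 CPM in WT22M and WT25F, a range of 3.07, and stayed called in WT22M against WT25F (log2 fold change -1.04, edgeR adjusted p = 3.15e-06; 0.722% of all genes). The Rpl29 copy Gm8210 fell to 0.108 CPM in KO23M, 2 counts, against 22.9, 39.6 and 34 CPM in KO26F, WT22M and WT25F. All 20 copies of Rpl29 together had 105 and 87.7 CPM in KO23M and KO26F, against 126 and 100 CPM in WT22M and WT25F. Summed with them, Rpl29 stood at 556 and 286 CPM in KO23M and KO26F, against 353 and 308 CPM in WT22M and WT25F. After summing, Rps18 alone of the 78 genes had a highest over lowest CPM above 2. The sources used here do not give how reads that match a gene and its copy were placed.

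**Figure D5:**
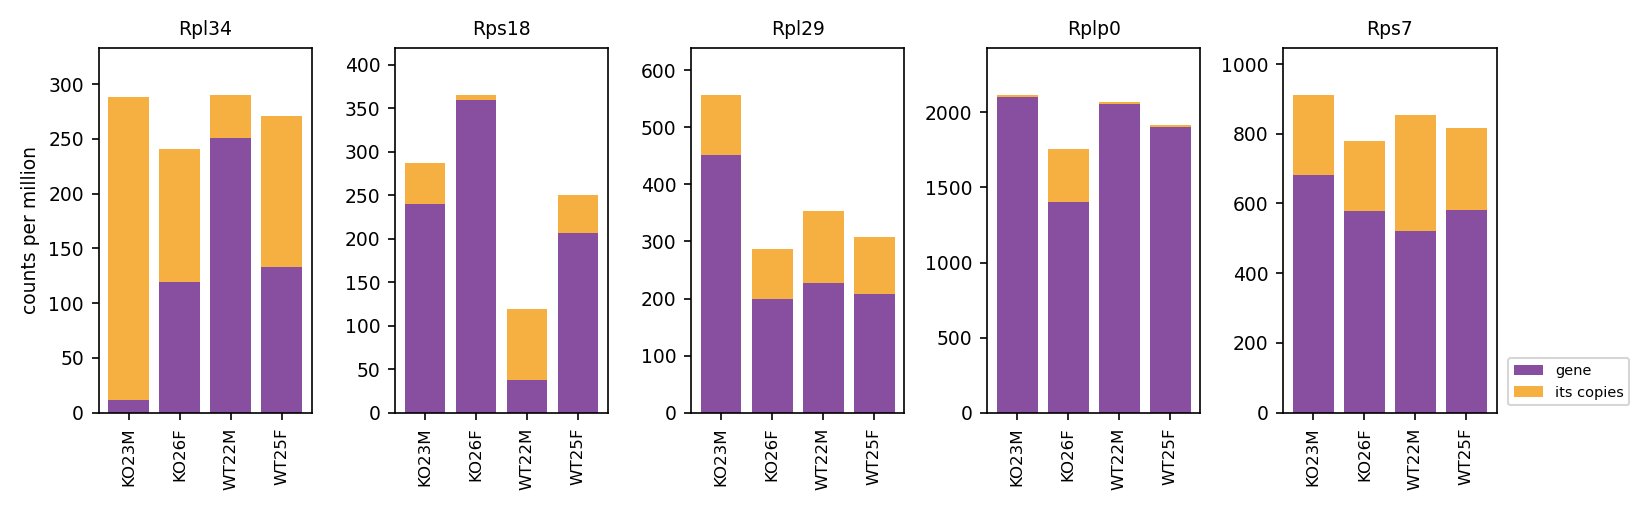
Bars show CPM by library for 5 genes (purple) with all their copies stacked on top (orange). The total is even for Rpl34 (240 to 290 CPM), Rplp0 and Rps7 while the purple part is not, whereas the totals of Rps18 (119 to 365 CPM) and Rpl29 (286 to 556 CPM) still differ.

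Other lists of the translation machinery are given as counts for KO against carriers, where 0.0615% of all genes were called, so that lists of this size would hold few calls or none. Of 77 mitochondrial ribosomal protein genes 34 were higher and 43 lower, with 0 called; of 44 ribosome assembly genes 21 and 23, with 0 called; and of 25 subunits of the RNA polymerases that make ribosomal RNA 13 and 12, with 0 called. Translation factors whose messengers also carry the pyrimidine tract (18 genes) had 13 higher and 5 lower, with 0 called, the 19 other initiation factor genes 12 and 7, the 17 genes of mTOR and Myc control 9 and 8, and 15 genes of the p53 response to ribosome stress 11 and 4, with 0 called. The elongation factor Eef1a1 stood at 7159 and 7206 CPM in KO23M and KO26F, against 6785 and 7208 CPM in WT22M and WT25F. Larp1, which holds back messengers with the tract, stood at 153 and 161 CPM, against 154 and 159 CPM, and Mycn, which drives growth of neural progenitors, at 124 and 133 CPM, against 126 and 117 CPM. Mdm2 had 58.7 and 68.8 CPM in KO23M and KO26F, against 58.8 and 60.3 CPM in WT22M and WT25F, and Cdkn1a, its fellow p53 target, 22.6 and 24.2 CPM, against 20.3 and 24.1 CPM.

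In M against F, 67 of 77 mitochondrial ribosomal protein genes were higher, where 48.4% of all genes were, at a median log2 fold change of 0.12. Of them 3 were called higher and 1 lower, a share near the 4.1% called over all genes. Fau, which encodes the small subunit protein eS30 fused to a ubiquitin-like part, rose: it stood at 389 and 352 CPM in KO23M and WT22M, against 293 and 298 CPM in KO26F and WT25F (0.36, SE 0.06, edgeR adjusted p = 7.95e-07). Rack1, a scaffold on the small subunit, rose as well (0.19, SE 0.06, adjusted p = 0.0255). The 18 translation factors with the tract had 12 higher and 0 called (median 0.09), and the 44 assembly genes 28 higher, with 1 called in each direction (median 0.04).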

How the data were processed

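RNA of 4 libraries was counted per gene. The authors deposited 3 tables, each of 1 library beside WT25F; per the file headers these hold, for each library, whole-number counts of each gene, a CPM value, a log2 fold change and a p-value with its adjusted value. Bowtie2 2.2.3, TopHat2 2.0.12, HTSeq 0.6.0 and the build mm9 are named in the submitters' processing notes; strand and multi-match settings are not stated in those sources. Gene positions matched GENCODE vM21 on GRCm38 for 20221 of 22039 identifiers found (91.8%) and are printed on that build.

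The tables were joined by identifier, with a missing gene set to 0, and CPM was computed from the joined counts. The test was edgeR's quasi-likelihood F test, version 4.0.16 (TMM, filterByExpr, robust fit, Benjamini-Hochberg over all genes tested, threshold 0.05), fitted on all 4 libraries. A copy is a pseudogene or single-exon gene with the protein description or KEGG entry of 1 gene of the set; 6 copies of Rpl3 were left out. Copies were aligned with Biopython 1.88. Intervals are 95% and, like the floor of 3 counts, cover counting error only. Alternatives were RLE factors, library totals, DESeq2 1.42.0, limma 3.58.1 voom, 2 other filters, the letter block, summed copies and each library left out; summing all copies and the comparison of M with F were added after the values were seen. Only the edgeR fit of KO against carriers was tested on simulated counts. R 4.3.3 and Python 3.11.15 were used.

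The members, the gene lists and the rule for naming genes (significant genes, 8 higher and 8 lower fold changes at a mean log2 CPM of at least 1, extremes of level and range, and a fixed list) were chosen with earlier results of these data known. Rps9, Rps29, Rpl18, Rpl28, Rpl36, Rpl21, Rps15 and the named copies were chosen after their values were seen.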

Additional observations from a re-analysis of the deposited data

Results flagged for a closer look

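The share of counts in ribosomal protein genes moved in opposite directions by title letter, with 1 library in each cell and no test of the difference possible. KO23M lay 0.178 percentage points above WT22M, while the share fell by 0.171 points in KO26F relative to WT25F, a difference of 0.349 points. In the M libraries 63 of 78 genes were higher in KO (50.8% of all genes averaging at least 1 CPM), and in the F libraries 15 of 78 (52.4%).

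Among the 16 genes with the 8 highest and 8 lowest fold changes at a mean log2 CPM of at least 1, 6 had opposite signs in the M and the F libraries, which was not tested either. Opposite signs were common in the family, where KO was higher for 63 of 78 genes in M and 15 of 78 in F, and are not particular to these 6 genes. The share of all genes with opposite signs was not counted. The log2 ratio of KO over carrier was higher in the M libraries than in the F libraries by 1.05 for Rpl29, 0.47 for Rplp0, 0.45 for Rpl13a, 0.39 for Rps7, 0.20 for Rps27l and 0.18 for Rpl23.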

How the results depend on the processing

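No ribosomal protein gene was called in KO against carriers under RLE factors, library totals, DESeq2, limma voom, both other filters, the letter block or summed copies; leaving out 1 library gave 0 to 1. The count over all genes was 10, 123 with the letter block, 126 with the block and summed copies, and 48 to 100 with 1 library left out. In KO against WT25F, library totals gave 2 calls (Rpl29 and Rpl34) in place of 0. In WT22M against WT25F, the count was 2 under library totals (Rps18 and Rpl34), and 0, with Rps18 lost, without a filter and with the spread of the fit of 2 arms. In M against F it was 17 under library totals and 4 without the arm term, in place of 44. Medians of the family ran from -0.15 to 0.13 with 1 library left out of KO against carriers.

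Of the 16 named genes, Rpl23a reversed when summed with its copies, to -0.0705, or -0.0667 with the block. Leaving out 1 library reversed Rplp0 (-0.52 to 0.10), Rpl29 (-0.15 to 1.07), Rpl13a (-0.11 to 0.31), Rps27l (-0.10 to 0.22), Rpl10a (-0.35 to 0.11), Rps28 (-0.26 to 0.054), Rps12 (-0.25 to 0.041), Rpl38 (-0.21 to 0.033) and Rpl23 (-0.22 to 0.050). At 2 libraries an arm the design limits what can be called. Low counts limit what can be said of Rpl24, Rpl36al, Rpl3l and Rpl39l, which had 12 counts or fewer in each library. The cause of these changes was not tested.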
